A study of Mus musculus with 7 samples.

Results

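This set holds 7 genes, Chd7, Smchd1, Tcf12, Hs6st1, Nsmf, Wdr11 and Ccdc141, which are 7 of the 30341 genes shared by the count matrices. They were chosen because variants of their human counterparts are linked to Kallmann syndrome or isolated hypogonadism. A further 50 genes linked to GnRH deficiency are treated as a list beside them. Kallmann syndrome joins a missing sense of smell to a lack of gonadotropin-releasing hormone (GnRH). GnRH neurons are born at the olfactory placode and migrate out of the nose along terminal nerve and olfactory axons into the forebrain. Genes behind the syndrome act in several places along that route, including in neurons, in the tissue the axons cross and in the developing skeleton of the face, so the genes were followed over all cell types of the embryonic nose.

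The libraries are droplet single-cell RNA sequencing of whole noses at embryonic day 14.5. Wild-type (WT) noses came from CD1 IGS mice, an outbred stock, and the labels count 5 noses in all. A further 2 libraries came from 1 nose of Prokr2iCre/R26tdTomato mice, which carry the allele Prokr2em1(cre)Cfe on a B6;SJL background and the reporter Gt(ROSA)26Sortm14(CAG-tdTomato)Hze/J. In these mice Cre expressed from Prokr2 switches on the red protein tdTomato. Of the 2, 1 held sorted and the other unsorted cells, but the sample labels do not say which, so they are called Prokr2Cre libraries 1 and 2 and are not replicates of each other. All suspensions were frozen before capture.

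WT replicates 3 and 4 shared 7386 cell barcodes, whereas no other of the 20 pairs of libraries shared more than 34, so replicate 3 was left out and the 4 WT replicates are 1, 2, 4 and 5. Kept cells had 500 or more detected genes and no more than 10% of their UMIs from mitochondrial genes, which left 3250 to 10496 cells per WT replicate, 1789 in Prokr2Cre library 1 and 1111 in library 2. The median unique molecular identifier (UMI) count per kept cell ran from 5126.5 to 13692. Each cell was placed in a type by marker genes, and its UMIs were summed with those of the same type and library. Levels below are CPM, the gene's UMIs per 1000000 UMIs of that sum. The scale counts tags at the 3′ end of messages and takes no account of gene length, and in such sums fewer RNA molecules per cell and fewer expressing cells cannot be told apart. In all, 13 types had at least 10 cells in at least 3 WT replicates. Olfactory neurons, other neurons and sustentacular cells were usable in replicates 1, 2 and 4 only, with 85, 24 and 34 olfactory neurons and 33, 19 and 15 other neurons.

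The genes cover different jobs. Chd7 is an ATP-dependent chromatin remodeller, Smchd1 is a structural maintenance of chromosomes protein that helps keep silenced chromatin silent, and Tcf12 is an E protein, the broadly expressed partner of lineage-specific basic helix-loop-helix factors. Hs6st1 adds sulfate to heparan sulfate chains, which fibroblast growth factor signalling needs. Nsmf is a synapse-to-nucleus messenger first described for its part in GnRH neuron outgrowth and migration, Wdr11 is a WD-repeat protein of vesicle traffic and cilium-based signalling, and Ccdc141 is a coiled-coil protein tied to GnRH neuron migration.

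In the GRCm38 assembly (GENCODE M21) the genes lie on 6 chromosomes. Chd7 spans 8690406 to 8867659 on chromosome 4, Smchd1 spans 71344489 to 71475343 on chromosome 17 and Tcf12 spans 71842688 to 72111871 on chromosome 9. Hs6st1 spans 36068400 to 36106446 on chromosome 1 and Wdr11 spans 129591863 to 129635738 on chromosome 7. Nsmf, at 25054355 to 25062881, and Ccdc141, at 77009902 to 77170636, are both on chromosome 2. Smchd1 contains Gm4707 on its own strand and Hs6st1 overlaps Gm37335 on the opposite strand, and both partners have rows in the matrices, so reads there could be split or dropped. The next protein-coding gene downstream of Ccdc141 on its strand is Ttn, 27.4 kb away, which encodes the giant muscle protein titin.

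Promoter sequence was at hand for 5 of the 7 genes (RefSeq, GRCm38.p6). The 250 bases before the start site are shown for Smchd1, which was measured in each of the 13 types, and for Ccdc141, which was low in most of them, with each CG dinucleotide, the target of DNA methylation in mammals, in capitals. Both run 5′ to 3′ on the minus strand, the first being chr17:71475344-71475593 and the second chr2:77170636-77170885.
Smchd1: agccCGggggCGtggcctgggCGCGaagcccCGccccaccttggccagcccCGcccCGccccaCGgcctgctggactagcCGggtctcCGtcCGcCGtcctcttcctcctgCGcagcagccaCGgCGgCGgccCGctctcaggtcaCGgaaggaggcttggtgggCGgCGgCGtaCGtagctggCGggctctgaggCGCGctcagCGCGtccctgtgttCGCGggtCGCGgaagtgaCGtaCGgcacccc
Ccdc141: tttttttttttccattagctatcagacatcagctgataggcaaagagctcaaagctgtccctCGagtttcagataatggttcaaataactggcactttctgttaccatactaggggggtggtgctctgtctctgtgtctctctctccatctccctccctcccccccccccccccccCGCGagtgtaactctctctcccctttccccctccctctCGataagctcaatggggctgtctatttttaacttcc
The Smchd1 stretch holds 33 CG and the Ccdc141 stretch 4, where the median of 32851 stretches of the same length is 6. Of those stretches, 96.0% hold fewer CG than Smchd1 and 37.8% hold fewer than Ccdc141. Hs6st1 has 37 and Wdr11 has 5. The 3 start sites listed for Tcf12 have 38, 39 and 0. This describes the letters of the windows only.

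All 7 genes differed somewhere among the 13 types by edgeR's quasi-likelihood test, with the replicate as a block and Benjamini-Hochberg adjustment over 13915 genes, but so did 91.6% of all tested genes. What set the genes apart from each other was the size of the range. From the highest to the lowest type the fitted level spanned 4.73 on the log2 scale for Chd7, 3.70 for Nsmf, 2.49 for Smchd1 and 2.47 for Hs6st1, beside a median of 2.58 over all tested genes. Tcf12 spanned 1.02 and Wdr11 0.86. Only 12.6% of tested genes had a smaller range than Tcf12 and 7.44% a smaller one than Wdr11. Ccdc141 has no usable range, because it had 0 UMIs in other neurons.

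Each type was then compared with the mean of the other 12. Of the 78 pairs of gene and type for the 6 genes without Ccdc141, 41 passed an adjusted p of 0.05, 18 of them higher and 23 lower. With Ccdc141 included, 44 of 91 passed, against 34.4% of all genes in the same contrasts, and 24 passed when the replicate block was dropped. Ccdc141 had 0 UMIs in other neurons. For such a gene, with 0 UMIs in all sums of a type, the fitted difference from a mean that includes that type depends on the prior count, and a lower value against that mean may not be callable. The counts over all genes and over gene lists include such genes, and the other 6 of the 7 genes had UMIs in every type tested. Smchd1 was called in 12 types, Chd7 in 11, Hs6st1 in 9, Nsmf and Tcf12 in 4 each and Wdr11 in 1. In olfactory progenitors 3 of the 7 were higher and 0 lower, where 26.2% and 15.2% of all genes were. In olfactory neurons 3 were higher and 1 lower, beside 25.1% and 15.6%. In other neurons 3 were higher and 0 lower, beside 10.4% and 10.3%, and in mesenchyme 1 was higher and 3 lower, beside 25.7% and 14.2%.

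**Figure D1:**
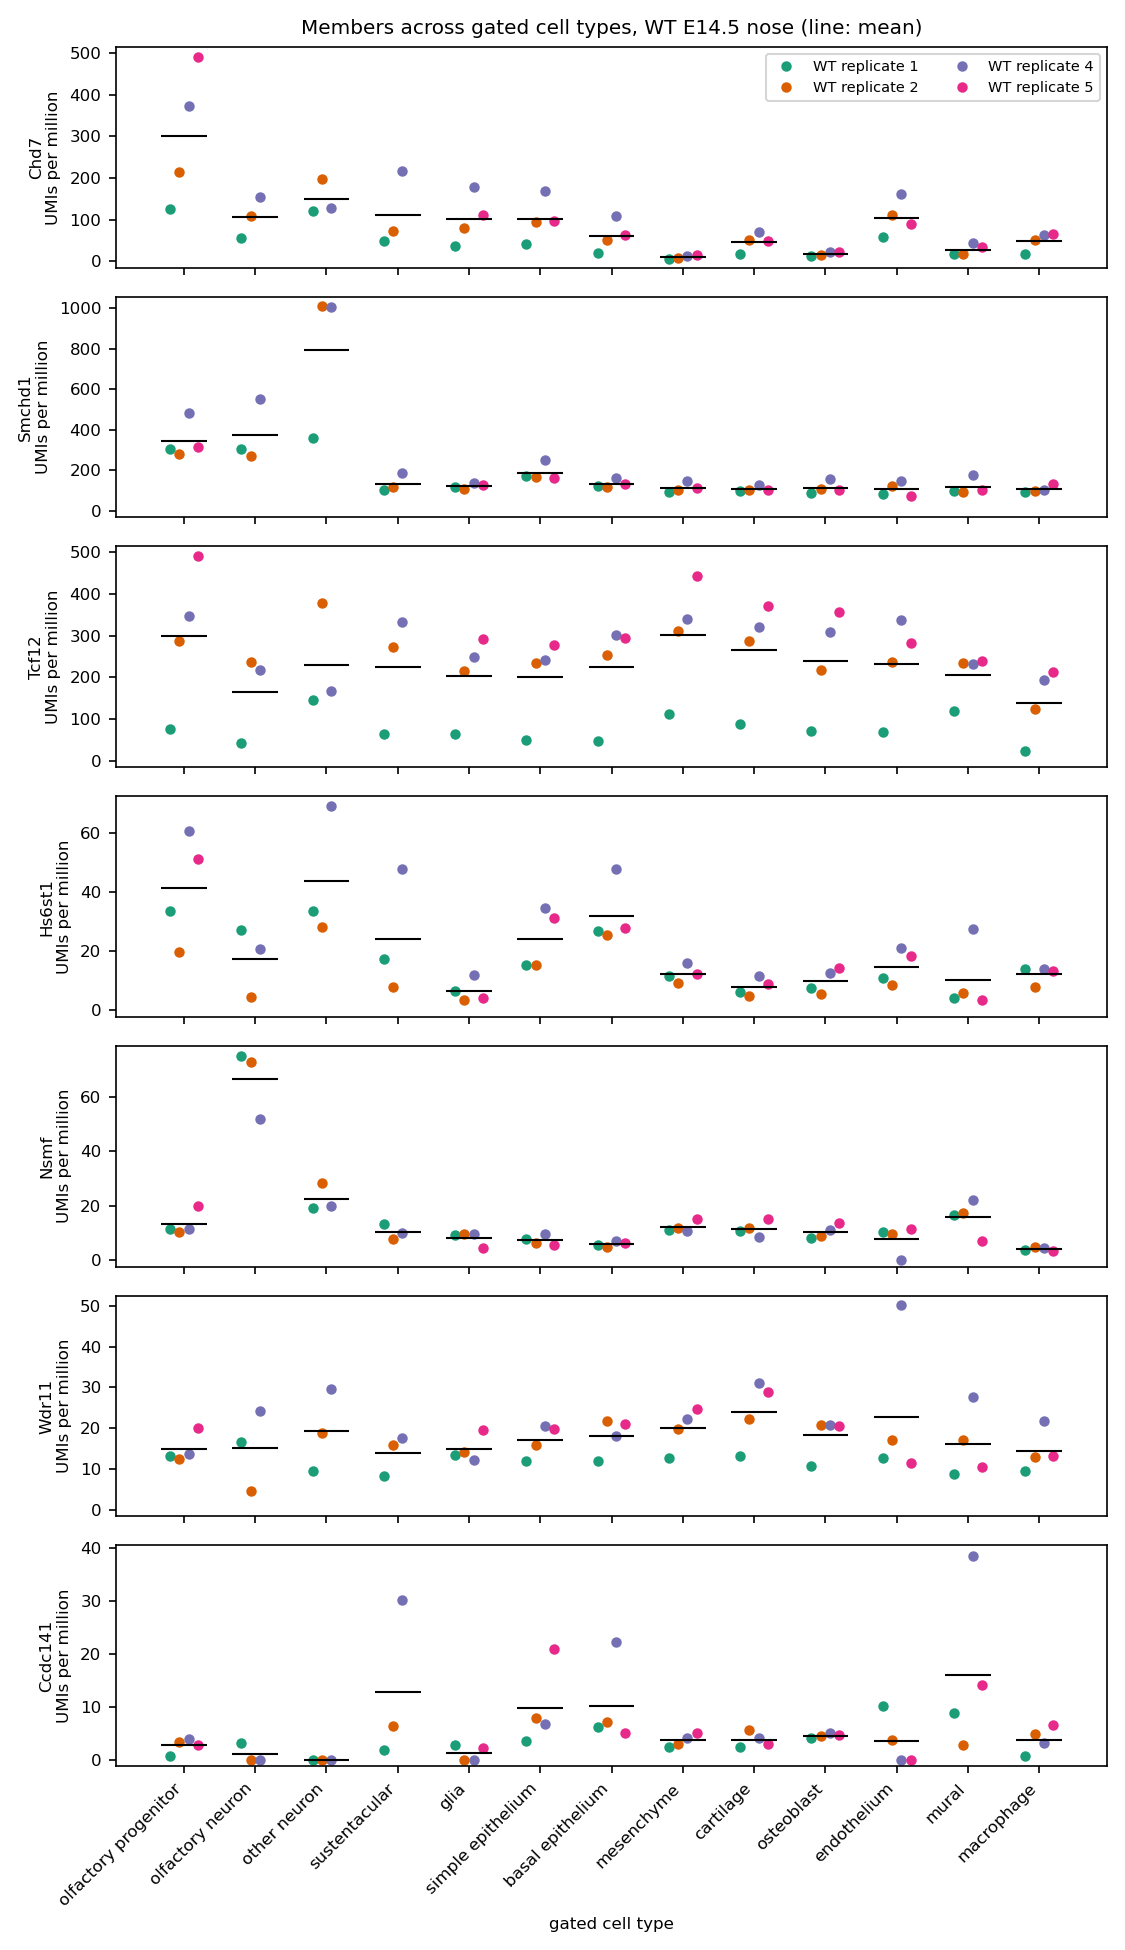
Level of each gene in CPM (vertical axes, each including 0) in 13 gated cell types of the WT nose (horizontal axis). Points are WT replicates with at least 10 cells of the type and lines are their means. Chd7 stands highest in olfactory progenitors, Smchd1 in other neurons and Nsmf in olfactory neurons, while the Tcf12 points of replicate 1 lie below those of the other replicates in all 13 types.

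**Figure D2:**
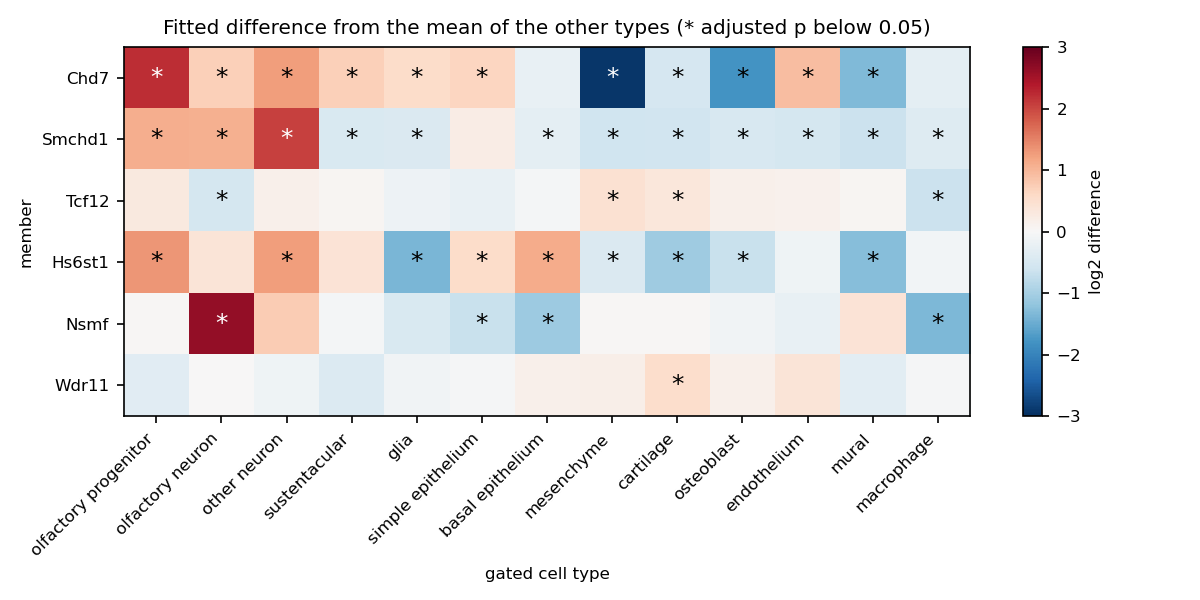
Fitted log2 difference of each type (horizontal axis) from the mean of the other types for 6 genes (vertical axis), with red for higher and blue for lower. Stars mark an adjusted p below 0.05. The strongest colours are Chd7 in olfactory progenitors and mesenchyme, at 2.22 and -2.91, and Nsmf in olfactory neurons, at 2.65.

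Chd7 was the gene with the widest range, high in olfactory progenitors and low in mesenchyme. In olfactory progenitors it reached 125, 214, 374 and 490 CPM in WT replicates 1, 2, 4 and 5. In mesenchyme it reached 5.56, 8.39, 12.6 and 14.9. Every progenitor value lay above every mesenchyme value, and the fitted difference was 4.73 ± 0.21 (log2, SE; edgeR adjusted p = 8.4e-23). Against the mean of the other types, Chd7 was 2.22 ± 0.13 higher in progenitors and 2.91 below it in mesenchyme (fitted value -2.91 ± 0.17), and both calls held under all 12 alternative settings. Endothelium was 0.93 ± 0.16 higher (edgeR adjusted p = 6.5e-06), with 57.1, 111, 161 and 89.1 CPM. In neurons Chd7 lay between the progenitor and mesenchyme levels. Other neurons held 120, 198 and 128 CPM in replicates 1, 2 and 4, which is 1.26 ± 0.30 above the mean of the other types (edgeR adjusted p = 0.0017), and 0.96 without replicate 1 (adjusted p = 0.082). Olfactory neurons were 0.71 ± 0.23 above it (edgeR adjusted p = 0.01), a call that failed in 5 of 12 alternatives. Among them it was 0.71 without replicate 1 (edgeR adjusted p = 0.061), 0.67 without replicate 2 (adjusted p = 0.063) and 0.31 with 1 more marker per gate (adjusted p = 0.49). Because mesenchyme made up 54.9% of kept WT cells, it still held 15.2% ± 7.6 (SD, n = 4) of all Chd7 molecules. Olfactory progenitors, at 1.33% of cells, held 16.6% ± 7.2.

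Within the skeletal lineage Chd7 was higher in cartilage than in bone-forming cells. Cartilage held 17.7, 50.8, 70.1 and 49.3 CPM and osteoblasts 13.1, 15.7, 21.5 and 22.6 in replicates 1, 2, 4 and 5. Cartilage was the higher of the pair in each replicate, although the ranges overlap. The difference was 1.20 ± 0.20 (edgeR adjusted p = 1.1e-05), and it was 0.76 when each gate asked for 1 more marker. Chd7 was the only 1 of the 7 genes called between cartilage and osteoblasts, where 22% of all genes were.

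Mesenchyme was split into 6 subsets by pairs of marker genes, and 6 of the 7 genes had enough UMIs to be tested there. Of them 2, Chd7 and Tcf12, differed among the subsets, beside 31.1% of all tested genes. Over the single subsets, 4 of 36 pairs passed, beside 9.71% of all genes. Chd7 was highest in cells with Aldh1a2, a retinoic acid synthesis enzyme, and Cldn11, a tight junction protein. It stood there at 14.5, 24.3, 42.6 and 28.2 CPM, which was above every other subset in the same replicate. The fitted difference from the other subsets was 1.77 ± 0.25 (edgeR adjusted p = 7.8e-06), and 1.10 without the tenth of cells with the most UMIs. In the Osr1 and Mab21l2 subset Chd7 stood at 2.55, 0, 6.15 and 5.04, a difference of -1.64 ± 0.32 (edgeR adjusted p = 0.001). That call was lost without replicate 5, at -1.40 (adjusted p = 0.18).

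**Figure D3:**
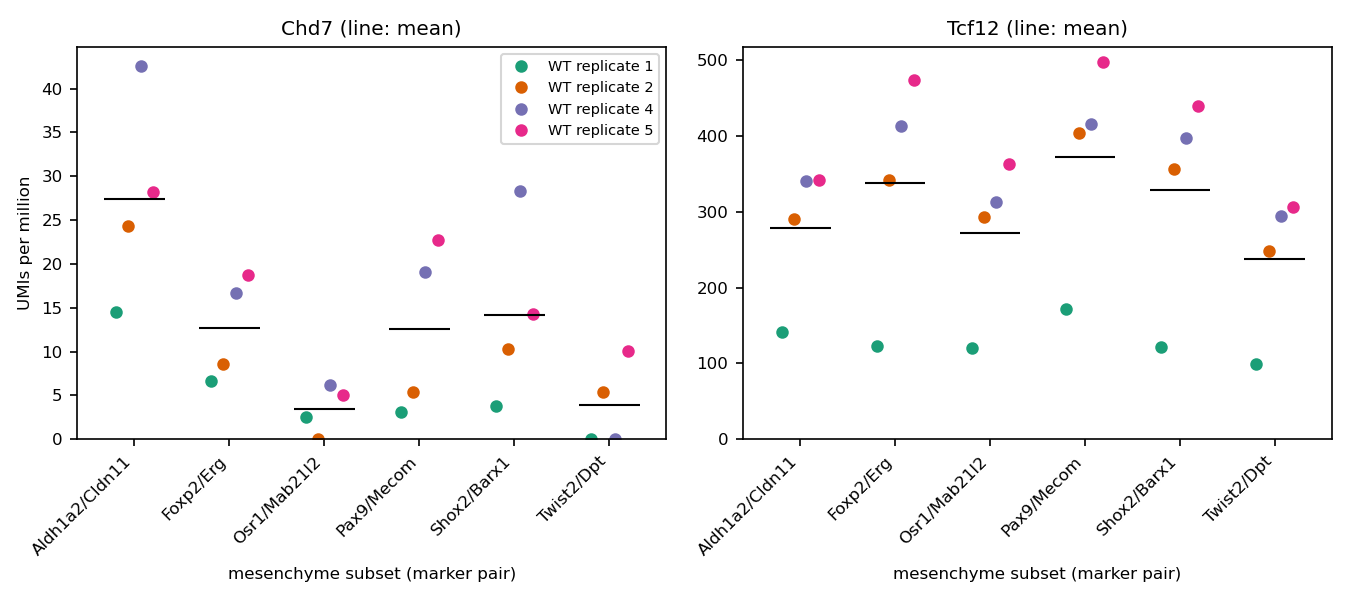
Chd7 (left) and Tcf12 (right) in 6 mesenchyme subsets named by their marker pairs (horizontal axis), in CPM (vertical axis, from 0). Points are the 4 WT replicates and lines are means. Chd7 in the Aldh1a2/Cldn11 subset runs from 14.5 to 42.6, and the subsets differ less for Tcf12 than the replicates do.

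The chromodomain helicase family gives a comparison for Chd7. Counting Chd7, 8 of the 9 family genes were tested. In progenitors 2 of the 8 were higher and 0 lower, a share near the 26.2% of all genes that were higher. They were Chd7 and Chd4, the latter higher by 0.35 ± 0.08. Chd4 is the helicase of the NuRD repressor complex. In mesenchyme 3 were higher and 2 lower, beside 25.7% and 14.2% of all genes, with Chd3 higher by 0.94 ± 0.10 where Chd7 was lower. Over 13 types, the genes whose mean levels were most like those of Chd7 were Psma7, a proteasome subunit, Ube2n, a ubiquitin-conjugating enzyme, and Dnmt3b, a DNA methyltransferase, with Pearson r of 0.907, 0.894 and 0.892. Those values come from the same sums and are a description.

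Smchd1 was higher in other neurons and in olfactory progenitors than in the mean of the remaining types. In other neurons, which carry general neuronal markers and at most 1 olfactory neuron marker, it stood at 361, 1010 and 1010 CPM in replicates 1, 2 and 4. In the 4 usable replicates of mesenchyme it stood at 94.0, 106, 147 and 116. The ranges do not overlap. Against the mean of the other types, Smchd1 was 2.06 ± 0.15 higher in other neurons (edgeR adjusted p = 4.7e-15). Olfactory progenitors were 1.08 ± 0.10 higher (edgeR adjusted p = 1.1e-11), with 305, 280, 485 and 314 CPM. Both calls held under all 12 alternatives.

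The other neurons were not free of olfactory lineage markers. Their summed olfactory neuron markers came to 265, 1208 and 918 CPM in replicates 1, 2 and 4, with 5, 6 and 5 of the 8 markers at 0. Their summed progenitor markers came to 1098, 963 and 721, with only 2, 2 and 1 of the 8 at 0. The median UMI count per cell was 5022, 4826 and 5558, beside 9320, 8143.5 and 6721 in olfactory neurons. The gate counts detected olfactory neuron markers, so it also moves with depth. Whether these cells lie outside the olfactory lineage was not tested. What these cells contribute to the Smchd1 level was not tested. The 3 genes most like Smchd1 over the 13 types were Sec14l4, Gm43057 and Kcnh6, with r of 0.987, 0.984 and 0.978.

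Olfactory neurons held 305, 272 and 551 CPM of Smchd1 in replicates 1, 2 and 4, which put them 1.08 ± 0.13 above the mean of the other types (edgeR adjusted p = 6.3e-09). When every gate, of this type and of the others, asked for 1 more marker, the difference was -0.061 (adjusted p = 0.89). Splitting the same neurons by whether they had a UMI of Omp, Stoml3 or Cnga4, which mark maturing olfactory neurons, gave 458 without and 140 with such a UMI in replicate 1 (52 and 33 cells). The values were 366 and 154 in replicate 2 (14 and 10 cells) and 756 and 152 in replicate 4 (28 and 6 cells). Neurons without a late marker were higher in all 3 replicates, by 3.27-fold (95% counting interval 2.48 to 4.38), 2.37-fold (1.30 to 4.58) and 4.97-fold (2.91 to 9.10). The split was made after these levels were known, so it is a description with no test. The late markers are also among the genes that gate olfactory neurons. Gap43, a gene of axon growth, was lower in neurons without a late marker. Its ratios were 0.434 (0.387 to 0.486), 0.489 (0.385 to 0.619) and 0.608 (0.481 to 0.768) in replicates 1, 2 and 4. Whether the split follows neuron age was not tested. It also moves with depth: the median UMI count per neuron was 7396 without and 12378 with a late marker in replicate 1, 6363 and 8391.5 in replicate 2, and 6135.5 and 13716.5 in replicate 4. The part of depth in the Smchd1 difference was not tested. A late-marker UMI was found in 38.8%, 41.7% and 17.6% of olfactory neurons of these replicates, and in 0.131%, 0.0786% and 0.0443% of mesenchyme cells, whose median UMI counts were 8278, 4992 and 5761.5. Neurons with a late marker stood at 140 to 154, beside 94.0 to 147 in mesenchyme and 162 to 251 in simple epithelium. Chd7 stood at 76.4 CPM without and 34.5 with a late marker in replicate 1, 130 and 82.3 in replicate 2, and 177 and 112 in replicate 4. The counting interval of the Chd7 ratio was 1.21 to 4.26 in replicate 1, and it spanned 1 in replicate 2 (0.638 to 4.26) and replicate 4 (0.786 to 3.47).

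The structural maintenance of chromosomes genes give a comparison for Smchd1. All 7, Smchd1 included, were higher in progenitors than in the mean of the other types, as were 26.2% of all genes. Smc4 and Smc2, the condensin subunits that compact dividing chromosomes, were higher by 1.07 ± 0.10 and 0.83 ± 0.10. In olfactory neurons 4 of the 7 were lower and 1, Smchd1, was higher, beside 15.6% and 25.1% of all genes. The Smchd1 call is the one that went to -0.061 with 1 more marker per gate. Smc2 was lower by a fitted -2.20 ± 0.21 and Smc4 by -1.59 ± 0.18. Between olfactory neurons and progenitors Smchd1 itself did not pass, with a difference of -0.0038 ± 0.17. That difference depends on the gate. The progenitor value against the mean of the other types was at least 0.998 under every alternative, whereas the neuron value fell to -0.061.

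**Figure D4:**
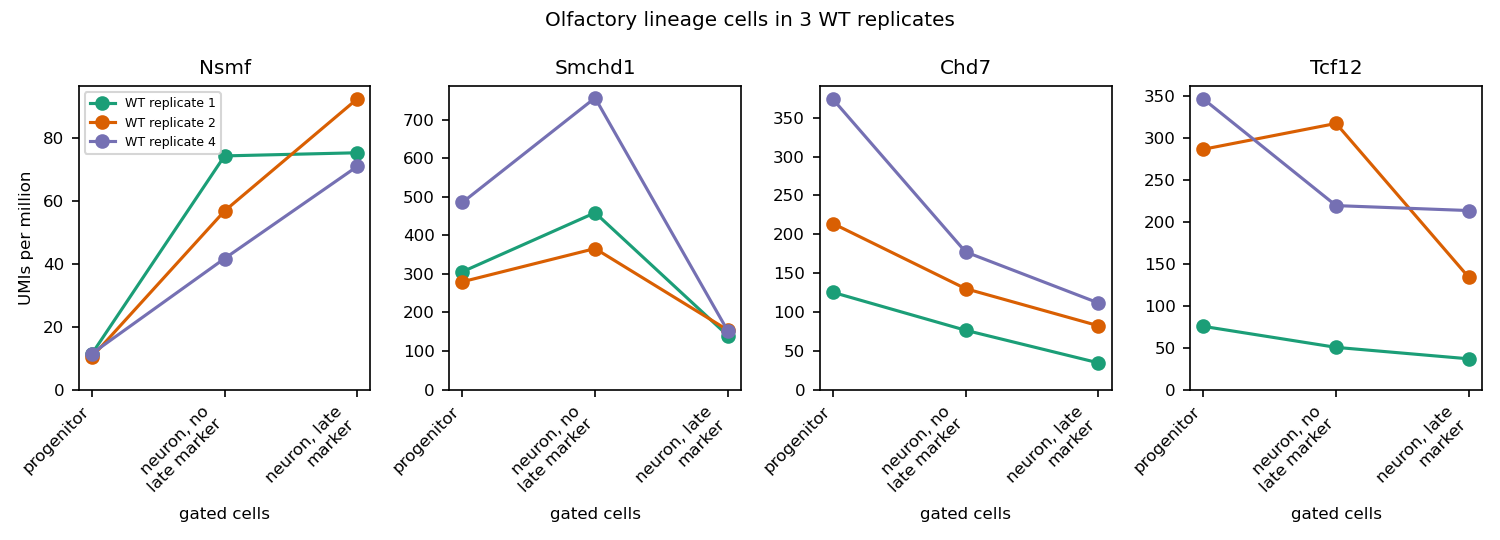
Nsmf, Smchd1, Chd7 and Tcf12 in CPM (vertical axes, from 0) in olfactory progenitors and in olfactory neurons without and with a UMI of Omp, Stoml3 or Cnga4 (horizontal axis). Lines join values of the same WT replicate. Nsmf is higher in both kinds of neuron than in progenitors, Chd7 is lower, and Smchd1 is lowest in neurons with a late marker, at 140 to 154.

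Nsmf was highest in olfactory neurons, where it stood at 74.9, 72.6 and 51.7 CPM in replicates 1, 2 and 4. No other tested type exceeded 28.3 in any of the replicates used. The difference from the mean of the other types was 2.65 ± 0.20 (edgeR adjusted p = 4.5e-15). Between olfactory neurons and their progenitors, which held 11.4, 10.4, 11.5 and 20.0, Nsmf was 2.41 ± 0.26 higher (edgeR adjusted p = 6.6e-10). Both calls held under all 12 alternatives. In the split by late marker the ratio of neurons without to neurons with a late marker was 0.987 (95% counting interval 0.605 to 1.61), 0.615 (0.194 to 1.85) and 0.587 (0.186 to 1.90) in replicates 1, 2 and 4.

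Nsmf also exceeded its level in other neurons, which held 19.3, 28.3 and 19.7. The difference was 1.74 ± 0.41 (edgeR adjusted p = 0.008). It was 1.45 without replicate 1 (adjusted p = 0.43) and 1.74 without replicate 2 (adjusted p = 0.12). The call failed in 4 of 12 alternatives, which also include the fit without the replicate block and the DESeq2 test. Nsmf and Smchd1 were the 2 genes called between olfactory and other neurons, where 3.69% of all genes were. Smchd1 was lower in olfactory neurons by a fitted -0.91 ± 0.20. The value was -0.60 without replicate 2 (adjusted p = 0.21) and -2.19 with 1 more marker per gate (adjusted p = 7e-10). At the other end, Nsmf stood at 3.8, 4.83, 4.67 and 3.31 in macrophages, -1.36 ± 0.31 from the mean of the other types, and at 5.42, 4.93, 6.94 and 6.31 in basal epithelium, -1.09 ± 0.19 from it.

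Between the 2 stages, 4 of the 7 genes differed between olfactory neurons and progenitors, beside 31.9% of all genes. Nsmf was higher, and Chd7, Hs6st1 and Tcf12 were lower. Smchd1 was not called with the main gates. Its olfactory neuron value against the mean of the other types went from 1.08 to -0.061 with 1 more marker per gate. Chd7 stood at 56.2, 109 and 155 CPM in neurons, below the progenitors of the same replicates, with a difference of -1.39 ± 0.25 (edgeR adjusted p = 2.1e-05). Hs6st1 was -0.87 ± 0.30 in neurons (edgeR adjusted p = 0.022), a call that failed in 4 of 12 alternatives, and Tcf12 was -0.77 ± 0.23. Without replicate 4 only 2 of the 4 calls held: Hs6st1 was then -0.60 (adjusted p = 0.23) and Tcf12 was -0.79 (adjusted p = 0.051). Without replicate 1 Hs6st1 was -1.72 (adjusted p = 0.011).

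Hs6st1 was higher in olfactory progenitors, other neurons and basal and simple epithelium than in the mean of the other types. It was lower than that mean in glia, mural cells and cartilage, among other types. Olfactory neurons, at 27.0, 4.54 and 20.7 CPM in replicates 1, 2 and 4, were not called. In olfactory progenitors it stood at 33.5, 19.7, 60.7 and 51.3 CPM, 1.31 ± 0.16 above the mean of the other types (edgeR adjusted p = 4e-09). In basal epithelium it stood at 26.7, 25.5, 47.9 and 27.8, which is 1.11 ± 0.14 above. Glia held 6.52, 3.56, 12.1 and 4.37, a difference of -1.36 ± 0.28. Glial and progenitor ranges do not overlap, and these 3 calls held under all 12 alternatives. Simple epithelium was 0.55 ± 0.15 above the mean of the other types (edgeR adjusted p = 0.0042), a call that failed in 3 of 12 alternatives. Cartilage, at 6.31, 5.01, 11.7 and 9.08, was -1.06 ± 0.16 from the mean. Mural cells, at 4.38, 5.74, 27.6 and 3.52, were -1.28 ± 0.35 from it (edgeR adjusted p = 0.0064), with replicate 4 far above the other replicates. That call failed in 4 of 12 alternatives, and the value was -0.78 without replicate 1 (adjusted p = 0.34). Other neurons, at 33.7, 28.3 and 69.1 in replicates 1, 2 and 4, were 1.26 ± 0.39 above it (edgeR adjusted p = 0.016), a call lost without replicate 1 (1.42, adjusted p = 0.076) or 4 (1.17, adjusted p = 0.13). With replicate 3 in place of replicate 4 it was 0.81 (adjusted p = 0.22), and the call failed in 6 of 12 alternatives.

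The heparan sulfate enzymes give a comparison for Hs6st1. Of 14 sulfotransferases and sulfatases, Hs6st1 included, 13 were tested. In mesenchyme 9 of the 13 were higher and 1, Hs6st1, was lower, beside 25.7% and 14.2% of all genes. Ndst3, which starts the sulfation of the chain, was higher there by 1.97 ± 0.20, and Sulf2, a sulfatase that removes 6-O-sulfate, by 1.87 ± 0.12. Hs6st1 was -0.44 ± 0.13 in mesenchyme, and that call was lost without replicate 2, 4 or 5, at -0.40, -0.24 and -0.32. In other neurons the related enzyme Hs6st3 was higher by 3.89 ± 0.40.

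Tcf12 was present in every type and differed more between replicates than between types. In mesenchyme it stood at 112, 310, 340 and 444 CPM in replicates 1, 2, 4 and 5, and in macrophages at 23.4, 124, 193 and 212. Replicate 1 was the lowest replicate in 13 of 13 types for Tcf12 and in 13 of 13 for Chd7. The matrix of replicate 1 was written by Cell Ranger 6.0.1 and those of the other WT replicates by 7.0.0, per the file headers, and the part of that version in the Tcf12 level was not tested. With the replicate as a block, Tcf12 was 0.46 ± 0.12 higher in mesenchyme than in the mean of the other types (edgeR adjusted p = 0.0022), and -0.65 ± 0.16 in macrophages (edgeR adjusted p = 0.0007). No Tcf12 call in any type held without the block. The olfactory neuron value, -0.53 ± 0.20, missed the threshold without replicate 1, 2 or 4, at -0.37, -0.68 and -0.61. The cartilage value, 0.34 ± 0.13, missed it without replicate 4, at 0.37 (adjusted p = 0.051).

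Within mesenchyme Tcf12 was highest in the Pax9 and Mecom subset, at 172, 405, 415 and 498 CPM. Pax9 is a transcription factor of the palate and tooth-forming mesenchyme. The difference from the other subsets was 0.35 ± 0.07 (edgeR adjusted p = 0.0018), and Pax9/Mecom cells were above Twist2/Dpt cells in each replicate. The latter subset was -0.39 ± 0.09, a call lost without replicate 2 (-0.40) or 5 (-0.37). Of the 3 E proteins, all 3 were higher in mesenchyme, as were 25.7% of all genes, Tcf4 by 0.85 ± 0.10 and Tcf3 by 0.35 ± 0.07. All 3 were also lower in olfactory neurons than in progenitors, a contrast in which 31.9% of all genes were called, Tcf4 by a fitted -1.46 ± 0.19.

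Wdr11 was the flattest of the 7. Its mean level over WT replicates lay between 13.9 CPM in sustentacular cells and 23.9 in cartilage. Cartilage stood at 13.2, 22.3, 31.0 and 28.9. The difference from the mean of the other types was 0.52 ± 0.13 (edgeR adjusted p = 0.00077), which held under all 12 alternatives and was the only Wdr11 call against the mean of the other types. Against mesenchyme, a comparison added after seeing the data, Wdr11 was called in olfactory progenitors, at -0.48 ± 0.20 (edgeR adjusted p = 0.046). Cartilage did not pass against mesenchyme, at 0.32 ± 0.15 (edgeR adjusted p = 0.11). The gene most like it was Cul7, a cullin of ubiquitin ligases, with r of 0.928.

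Ccdc141 was rare in every type with enough cells for a test. In mesenchyme it stood at 2.45, 3.06, 4.01 and 5.10 CPM. In other neurons it had 0 UMIs in each of the 3 replicates, which allows up to 17.8 CPM in replicate 1, the deepest, by the exact Poisson interval. Against mesenchyme, Ccdc141 was 1.39 ± 0.44 higher in basal epithelium, 1.28 ± 0.45 in simple epithelium and 1.85 ± 0.64 in mural cells by edgeR (adjusted p = 0.0083, 0.017 and 0.038), contrasts in which 46.1%, 49.5% and 18.5% of all genes were called. Each depends on single replicates: basal epithelium gave 0.89 without replicate 4 and 1.30 without replicate 2, and simple epithelium 1.05 without replicate 2 and 0.92 without replicate 5. Mural cells lost the call when any 1 replicate was left out, with values of 1.89, 1.95, 1.34 and 1.95 without replicates 1, 2, 4 and 5.

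Ccdc141 was also read in skeletal muscle cells, which were too few for the fit, and 3 libraries had at least 10 of them. Replicate 1 had 78 such cells and 56.9 CPM (95% Poisson interval 45.1 to 70.8), replicate 2 had 15 cells and 36.6 (13.4 to 79.8), and Prokr2Cre library 2 had 12 cells and 126 (94.2 to 165). That was 23.2-fold (16.9 to 31.8), 12-fold (4.28 to 27.2) and 19.3-fold (12.8 to 29.2) the mesenchyme of the same library. The 6 muscle cells of replicate 5 held 50.3 CPM, 9.87-fold (3.88 to 21.0) its mesenchyme, replicate 4 had 1 cell with 1 UMI, and Prokr2Cre library 1 had 2 cells with 0 UMIs. These intervals cover counting error only, and no test was made. All 8 muscle markers were detected in the muscle cells of each of the 3 libraries with at least 10 such cells. Their summed mesenchyme markers came to 128, 263 and 80.0 CPM.

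Terminal nerve cells, along whose axons GnRH neurons migrate, were gated by Gnrh1, Gal, Cntn2, Prph and Nhlh2, so they can include GnRH neurons. The gated cells were numerous enough in Prokr2Cre library 2 alone, with 24 cells beside 119 olfactory neurons. All 5 terminal nerve markers were detected in them, at a summed 1657 CPM, and so were 7 of the 8 olfactory neuron markers, at a summed 1288. Nsmf stood at 49.8 CPM (34.3 to 69.9) in terminal nerve cells and 109 (95.4 to 123) in olfactory neurons, a ratio of 0.458 (0.309 to 0.661). Smchd1 stood at 67.9 and 119, a ratio of 0.569 (0.406 to 0.783). Without the tenth of cells with the most UMIs the Nsmf ratio was 0.536 (0.355 to 0.785) and the Smchd1 ratio 0.726 (0.514 to 1.004), so the Smchd1 interval then reached 1. Chd7 was close between them, at 96.5 and 106, with a ratio interval of 0.678 to 1.20. Tcf12 stood at 145 and 155 (0.737 to 1.17), Hs6st1 at 33.2 and 24.8 (0.777 to 2.22) and Wdr11 at 19.6 and 15.5 (0.614 to 2.45). Ccdc141 had 1 and 6 UMIs, with an interval of 0.0123 to 4.67. With 1 library there is no test, and the intervals cover counting error only.

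**Figure D5:**
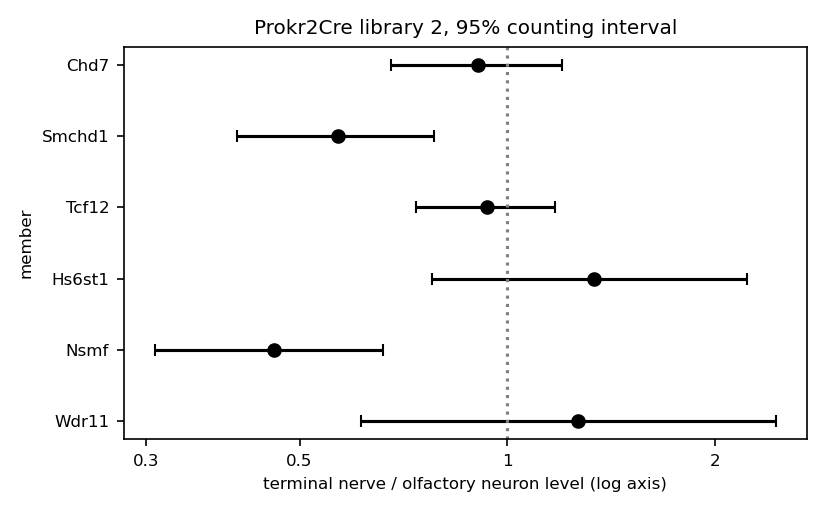
Ratio of the level in terminal nerve cells to that in olfactory neurons of Prokr2Cre library 2 (horizontal axis, log scale) for 6 genes (vertical axis). Bars are 95% counting intervals from 24 and 119 cells of 1 library, and the dotted line marks equal levels. The bars of Nsmf, 0.309 to 0.661, and Smchd1, 0.406 to 0.783, lie below 1 with all cells, and that of Smchd1 reaches 1.004 without the tenth of cells with the most UMIs.

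The WT terminal nerve cells were 9, 2 and 2 in replicates 1, 2 and 4. Their summed terminal nerve markers came to 3998, 47097 and 1187 CPM, and their summed olfactory neuron markers to 738, 2236 and 1187, so the cells gated to this type differed between replicates. In the 9 cells Smchd1 stood at 488 CPM (386 to 609), beside 305 in olfactory neurons of that replicate, a ratio of 1.60 (1.23 to 2.06). That is the opposite order to library 2. In the 2 cells of replicate 4 the ratio was 0.185 (0.0668 to 0.411), and in the 2 cells of replicate 2 it was 1.796 (0.693 to 3.93), so the direction for Smchd1 differed between libraries. Nsmf stood at 18.8 (3.87 to 54.9) in the 9 cells of replicate 1, beside 74.9 in its olfactory neurons, a ratio of 0.251 (0.0505 to 0.762). In replicates 2 and 4 the Nsmf ratio was 0.962 (0.0229 to 6.19) and 0.657 (0.0729 to 2.82), and both intervals span 1.

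The Prokr2Cre libraries were set beside the WT range for each type with at least 10 cells, without a test. Strain, capture, sort and Cell Ranger version (6.1.2, beside 6.0.1 or 7.0.0 in WT) differ together and cannot be told apart. In library 1, 45 of 63 pairs of gene and type lay within the WT range, 7 above and 11 below. In library 2, 23 of 49 lay within, 22 above and 4 below. The share of all genes outside the WT range was not computed, so these counts cannot be read as a trait of the 7 genes. Chd7 and Tcf12 of library 1 were within the WT range in all 9 types. For both genes that range reaches down to WT replicate 1, the lowest replicate in 13 of 13 types. Tcf12 of library 1 lay below the WT median in all 9. Endothelium, for example, held 68.2 beside a median of 260, and macrophages 23.9 beside 159. Nsmf of library 2 was above the WT range in 5 of 7 types and below it in 2. Those 2 were cartilage, with 12 cells and 0 Nsmf UMIs, and basal epithelium, with 14 cells and 1 UMI, so counting error alone spans the WT range there. Of the 5 types above it, the counting intervals of 4 also reach the WT range, and that of olfactory neurons (95.4 to 123) does not. In olfactory neurons of library 2, Smchd1 was at 119 CPM, below the WT range of 272 to 551, and Nsmf was at 109, above the WT range of 51.7 to 74.9. In that library 70 of the 119 olfactory neurons had a UMI of a late marker, and Smchd1 was 136 in the cells without and 110 in those with one, a ratio of 1.23 (0.956 to 1.58).

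The pathway around these genes was read from 50 other genes linked to GnRH deficiency, of which 37 were tested. Among the types 33 of the 37 differed, as did 91.6% of all genes. In olfactory neurons 14 of the 37 were higher and 3 lower than in the mean of the other types, beside 25.1% and 15.6% of all genes. They included Tubb3, a neuronal tubulin, higher by 5.62 ± 0.25, and Fezf1, a zinc-finger factor of olfactory axon guidance, and Prokr2, the prokineticin receptor. Fezf1, Prokr2, Sox2 and Lepr each had 0 UMIs in at least 1 of the types in the mean, so no size is given for them. In progenitors 11 were higher and 7 lower, beside 26.2% and 15.2% of all genes, and those higher included Tubb3 at 5.29 ± 0.22, Fezf1 and Sox2, a neural progenitor factor. In mesenchyme 17 were higher and 6 lower, beside 25.7% and 14.2%, and those higher included Ndnf, a secreted neurotrophic protein, at 2.76 ± 0.23, Igsf10 at 2.53 ± 0.13 and Lepr, the leptin receptor. Set beside these, the largest positive values among the 7 genes were 2.65 in olfactory neurons (Nsmf), 2.22 in progenitors (Chd7) and 0.46 in mesenchyme (Tcf12).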

How the data were processed

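Per the labels, 3′ droplet libraries were made from frozen suspensions of embryonic noses. The deposited matrices hold whole-number UMI counts per gene and cell, written by the authors with Cell Ranger 6.0.1, 7.0.0 or 6.1.2 per the file headers. The submitters' processing notes name mm10, and whether intronic reads were counted is not given in the sources used here. The labels do not say that replicates are separate litters. With the replicate as a block, p-values measure the spread between these libraries that is left after shifts shared by all types.

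The 7 genes, marker lists and gene lists were chosen with earlier results of these data known. Kept cells had 500 or more detected genes and no more than 10% of UMIs from mitochondrial genes. A type needed 3 detected markers (5 for cartilage, 4 for mural cells) and a lead of 0.25 of its list over the next type; 2883 to 8615 cells per WT replicate were placed. No doublet caller was run, and an alternative left out the 10% of cells with the most UMIs per library and type. UMI counts were summed per replicate and type with at least 10 cells in at least 3 replicates, giving 49 sums of 101308 to 35070940 UMIs, which set the precision. They were tested with edgeR 4.0.16 quasi-likelihood (R 4.3.3, TMM, filterByExpr, replicate as block) and Benjamini-Hochberg adjustment over 13915 genes, with gating genes not tested. Sums of 1 replicate come from 1 library: their deviations from the type means correlated at a median r of 0.404 over 279 pairs, and 99.3% of pairs were over 0.1. Alternatives were DESeq2 1.42.0, other filters, gates and libraries, and a comparison of each type with mesenchyme added after seeing the data. On simulated data for olfactory neurons against the mean of other types, run on 11294 genes, 52 of 94 genes changed by a log2 of 1 and 87 of 103 changed by 2 were recovered. Of 147 calls, 8 were false. Changed genes had a mean of at least 10 CPM, and apart from these changes no gene differed between types. Recovery of rarer genes such as Ccdc141, or where most genes differ, was not simulated. Counting intervals are exact at 95%, binomial for ratios and Poisson for levels. All 7 genes were named; of each fixed list, genes with the 3 largest called differences in a comparison could be named; likeness was the 3 genes with the highest Pearson r. Likeness results are given for Chd7, Smchd1 and Wdr11, and those of the other 4 genes are not reported here.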

Additional observations from a re-analysis of the deposited data

Results flagged for a closer look

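Among 70 groups of 4 WT replicates (1 gene in 1 type), 15 had 1 replicate standing far from the other 3; chance gives about 1 in 20 groups. The groups share libraries, so these are not separate events: over 13 types, replicate 4 was the highest in 11 for Smchd1 and in 11 for Hs6st1, and replicate 2 was the lowest in 12 for Hs6st1. Values are CPM. Smchd1 in replicate 4 was the highest in cartilage (129.7), mural cells (176), olfactory progenitors (485) and simple epithelium (251), where the other replicates reached at most 103, 102, 314 and 175. Hs6st1 in replicate 4 was the highest in basal epithelium (47.9) and mural cells (27.6), and in replicate 2 the lowest in macrophages (8.06). Ccdc141 in replicate 4 was the highest in basal epithelium (22.2). Nsmf in replicate 4 was at 0 in endothelium, in replicate 5 the lowest in glia (4.37) and in replicate 5 the highest in olfactory progenitors (19.96). Wdr11 was the highest in endothelium in replicate 4 (50.2) and in olfactory progenitors in replicate 5 (19.96), and the lowest in osteoblasts in replicate 1 (10.8). Tcf12 was the lowest in mural cells in replicate 1 (120.0).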

How the results depend on the processing

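Of 55 calls on single genes, 24 passed under every alternative, 30 lost the threshold under at least 1 with the direction kept, and 1 changed sign: Smchd1 in olfactory neurons, from 1.08 to -0.061 with 1 more marker per gate. Without the replicate block 24 of 91 pairs of gene and type passed in place of 44, where the other alternatives with all replicates gave 39 to 45; the counts fell from 4 to 2 between olfactory neurons and progenitors, from 2 to 0 between olfactory and other neurons, and from 4 to 1 in mesenchyme subsets; the cause was not tested. With the DESeq2 test, 1 gene in place of 2 passed between olfactory and other neurons. Leaving out 1 replicate gave 33 to 39 of 91 pairs, 6 to 7 genes with any difference, 2 to 4 genes between olfactory neurons and progenitors, 0 to 2 between olfactory and other neurons, 1 between cartilage and osteoblasts, and 2 to 5 subset pairs. In library 2, 1 in place of 2 terminal nerve ratios, that of Nsmf and no longer that of Smchd1, had an interval away from 1 without the tenth of cells with the most UMIs. Counts of Prokr2Cre values outside the WT range ran from 40 to 54 beside 44. No paired analysis was possible because of 1 library each for the Prokr2Cre values. Depth limits the rarest types: in the smallest sum, with 101308 UMIs, 0 UMIs of Ccdc141 allow up to 36.4 CPM.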
